A study of Pinus pinaster with 6 samples.

Results

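The transcripts described here are 4 forms annotated as alcohol dehydrogenase in maritime pine (Pinus pinaster) roots, pp_247833, pp_247834, pp_247837 and pp_203818, out of 46658 transcripts measured. They were chosen by ID from their levels in ammonium-treated and control roots. Forms pp_247833, pp_247834 and pp_247837 (the even forms) lay close together among the control libraries and lower under ammonium, whereas pp_203818 varied among the control libraries. Because these levels chose the transcripts, the difference between treatments and the spread of pp_203818 are given as a description. The calls that fits over all transcripts made for them are stated once, and nothing is read from those calls.

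Whole roots came from seedlings 1 month old that had been raised on vermiculite with distilled water only, a background shared by both groups. Each seedling group received 80 mL of either plain water (C1, C2 and C3, the control libraries) or NH4Cl at 3 mM (N1, N2 and N3, the ammonium libraries), and roots were taken 24 h later, in an experiment run 3 independent times. Native poly(A) RNA was read by direct RNA sequencing (DRS), in which the RNA strand itself is read. A first cDNA strand was made during library preparation, but it was not the strand sequenced. The p-values and SEs below start from the spread between these 3 libraries per group. They are moderated, that is, they also borrow from the spread of other transcripts, so they are not the observed spread of 1 transcript alone.

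The values are CPM, reads scaled to a common library size after the authors' library scaling, and are not divided by transcript length, so levels of different transcripts are set against each other only as ratios followed from library to library. From 1270378 reads (C1) to 5416076 reads (N3) were recovered per library, and 1 read was worth 0.767 CPM in C1 and 0.178 CPM in N3. In a principal component analysis C1 stood apart on the first axis (36.5% of the variance) and N1 on the second (22.3%). All 7 measured markers of green tissue (10 listed), which roots should hold little of, had reads in every library, with 322 to 407 CPM for the most abundant one (pp_87050, a light-harvesting protein) in the control libraries and 242 to 334 CPM in the ammonium libraries. None of the 7 passed limma, and their part in the results was not tested.

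Alcohol dehydrogenase (ADH) is a zinc enzyme that reduces acetaldehyde to ethanol and returns NAD+ to glycolysis. Acetaldehyde is made from pyruvate by pyruvate decarboxylase, and together the 2 enzymes form the ethanol branch of fermentation. In plants ADH1 is best known as a gene induced in roots by lack of oxygen, through ethylene response factors of group VII, and waterlogged soil is the usual setting. The same enzyme can run backwards and oxidise ethanol, and aldehyde dehydrogenases oxidise the acetaldehyde further to acetate.

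All 4 transcripts had Arabidopsis ADH1 as their closest match in the study's annotation. The even forms also shared their best match in 1 of the pine unigene collections that the study searched, and pp_203818 had a different one there, which it shared with pp_185261, pp_185262, pp_185263 and pp_185264. No sequences of these transcripts were used here. Near-identical transcripts can be given the same reads, and 5202 of the 46658 transcripts (11.1%) had the same number of reads as another transcript in all 6 libraries. How reads were divided among the even forms is not known, so they may not be separate measurements of 3 genes.

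The even forms were the steadiest of the 4 in water and stood at 44.2% to 44.3% of the control mean under ammonium. Form pp_247833 was at 61.4, 63.8 and 61.6 CPM in C1, C2 and C3 and at 30.5, 22.2 and 30.1 CPM in N1, N2 and N3. The lowest control library was 2.01 times the highest ammonium library, so the groups did not overlap. In bulk roots, fewer cells holding a transcript and less of it per cell cannot be told apart. On the log2 scale the change was -1.16 (SE 0.14), between means of 62.3 ± 1.35 CPM (control) and 27.6 ± 4.71 CPM (ammonium), given as SD with n = 3.

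Form pp_247834 was at 69.0, 74.5 and 72.9 CPM in the control libraries and at 36.0, 25.2 and 34.4 CPM in the ammonium libraries. Its log2 fold change was -1.17 (SE 0.14), from 72.1 ± 2.78 to 31.9 ± 5.87 CPM (SD, n = 3). Form pp_247837 was at 60.6, 60.8 and 58.3 CPM in water and at 28.9, 22.2 and 28.3 CPM in ammonium, a log2 fold change of -1.16 (SE 0.14). In both, as in pp_247833, N2 was the lowest library and the groups did not overlap. The control libraries lay within each other's counting error. For pp_247833 the exact 95% Poisson intervals ran from 48.7 to 76.4 CPM in C1, 56.9 to 71.3 CPM in C2 and 54.6 to 69.3 CPM in C3, and these intervals cover counting error only.

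Form pp_203818 was lower under ammonium as well, but its control libraries were far apart. It was at 41.4 CPM in C1, 56.5 CPM in C2 and 121 CPM in C3, and at 15.3, 23.7 and 30.5 CPM in the ammonium libraries N1 to N3. C3 was 2.92 times C1 and 2.14 times C2, and its interval (111 to 132 CPM) did not reach that of C2 (50.0 to 63.5 CPM) or of C1 (31.1 to 54.1 CPM). The groups did not overlap, but the gap was narrow, since the lowest control library was 1.36 times the highest ammonium library. Its means were 73.0 ± 42.3 CPM and 23.1 ± 7.63 CPM (SD, n = 3), with a log2 change of -1.52 (moderated SE 0.30). Its own SD within groups on the log2 scale was 0.65, against 0.15 to 0.20 for the even forms. An SD and an SE of a difference between means are not on the same footing. Because this SE borrows from transcripts with less spread, it understates the spread of pp_203818 alone.

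**Figure D1:**
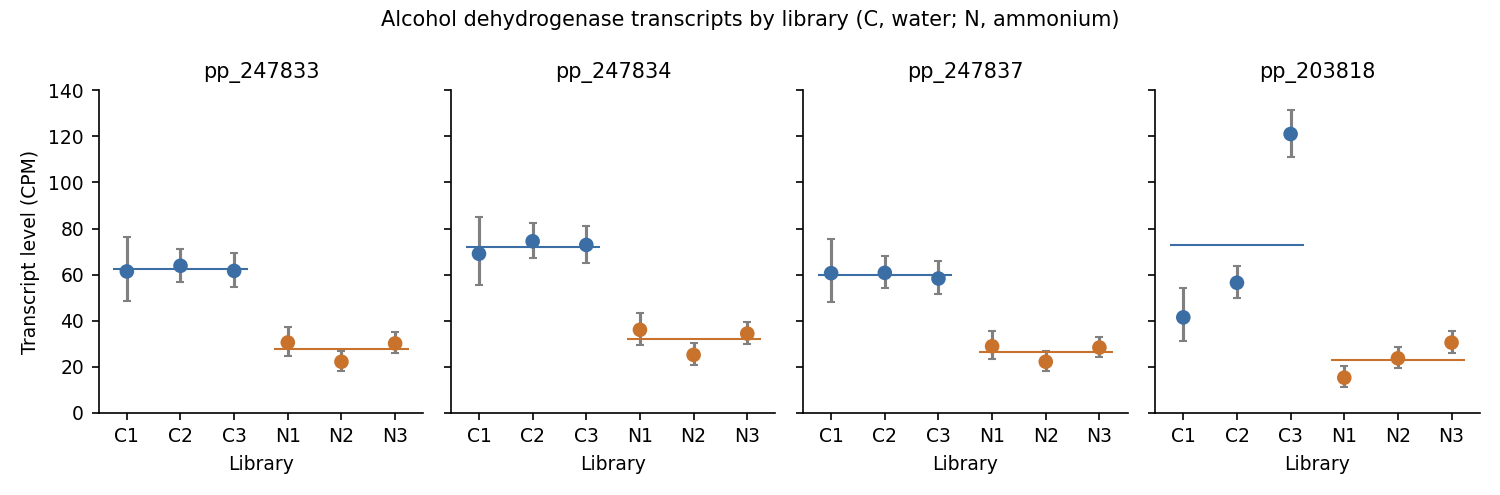
Level in CPM (vertical axis) of each of the 4 alcohol dehydrogenase transcripts in the 3 control libraries (C, blue) and the 3 ammonium libraries (N, orange), with exact 95% Poisson intervals of the reads as bars and group means as lines. The even forms lie at 58.3 to 74.5 CPM in every control library and at 22.2 to 36.0 CPM in every ammonium library, while pp_203818 runs from 41.4 to 121 CPM in the controls.

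Among the 17826 transcripts with a control mean of at least 10 CPM, the median coefficient of variation over C1, C2 and C3 was 12.8%. The even forms had 2.17% (pp_247833), 3.86% (pp_247834) and 2.30% (pp_247837), below the median, and pp_203818 had 58.0%, above that of 99.6% of these transcripts. Under ammonium the coefficients were 17.1%, 18.4% and 14.1% for the even forms in the same order and 33.0% for pp_203818. The contrast between the forms was thus smaller among the ammonium libraries. Ammonium libraries were all lower than control libraries in the 4 transcripts and in 6.94% of all transcripts, and as the rule used these values nothing is read from it. On the log2 scale the control SD was 0.03 to 0.06 for the even forms and 0.78 for pp_203818.

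Limma called 3 of the 4 transcripts, the even forms, as lower (adjusted p under 0.05 over all transcripts), where 0.0300% of the 46658 transcripts were called lower and 0.00857% higher. Since the rule used this contrast, nothing is read from that count or from the calls under other settings. The even forms were not called without C2, or under eBayes without its trend. Form pp_203818 was called by edgeR's exact, quasi-likelihood and likelihood-ratio tests, by limma with voom weights, and by limma without C1, alone or with N1. Its log2 fold change was -1.08 without C3. In that same fit pp_247833 was at -1.17, pp_247834 at -1.16 and pp_247837 at -1.18.

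**Figure D2:**
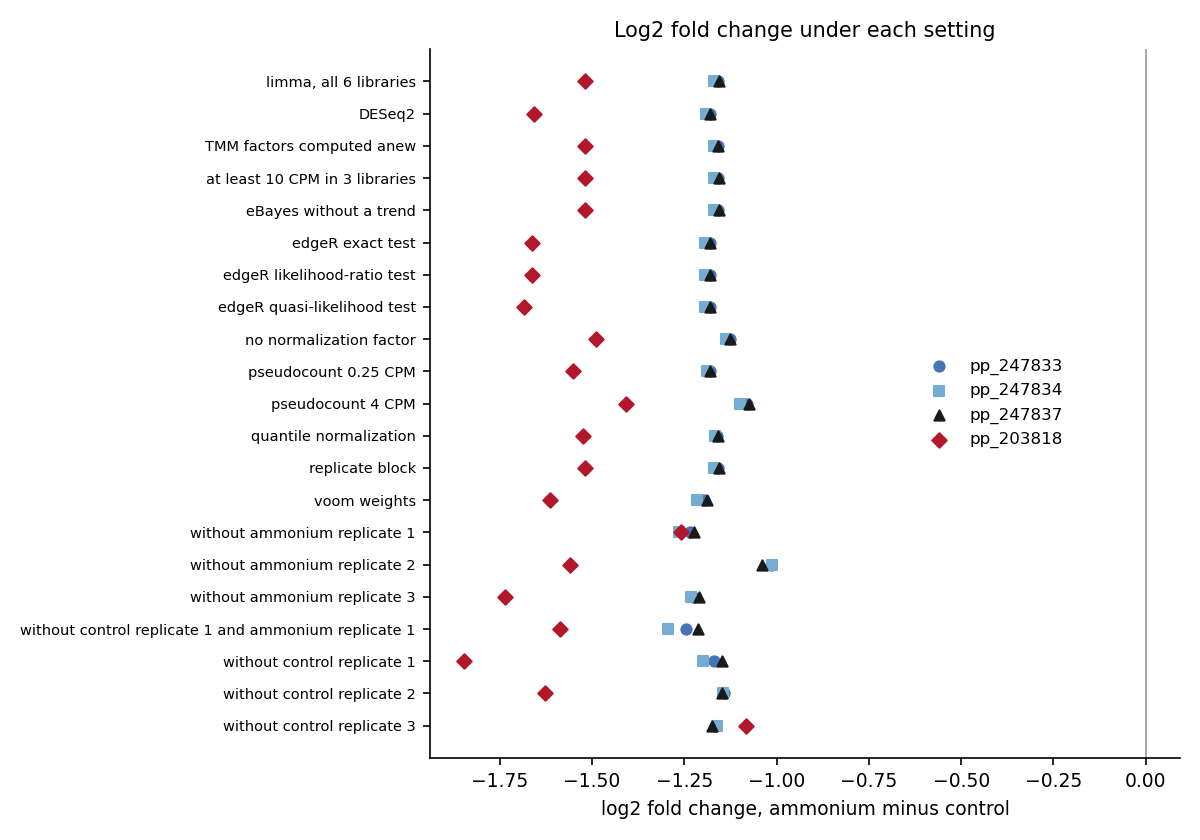
Log2 fold change of the 4 transcripts (horizontal axis, ammonium minus control) under each setting of the fit (vertical axis), with limma on all 6 libraries at the top. The even forms stay together between -1.29 and -1.01, and pp_203818 moves from -1.85 without C1 to -1.08 without C3.

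The even forms had nearly the same proportions to each other in every library. These proportions come from the same values that chose the forms, so they are a description, with no test. Of the reads given to the 3 of them, pp_247833 had 31.9% to 32.4%, pp_247834 had 36.1% to 37.8% and pp_247837 had 30.2% to 31.9% over the 6 libraries. The control and ammonium means were 32.1% ± 0.09 and 32.1% ± 0.29 for pp_247833, 37.1% ± 0.87 and 37.0% ± 0.78 for pp_247834, and 30.8% ± 0.79 and 30.9% ± 0.88 for pp_247837 (SD, n = 3). Forms pp_247833 and pp_247837 had 80 and 79 reads in C1, 312 and 297 in C2, and 279 and 264 in C3. Under ammonium they had 94 and 89 in N1, 104 each in N2, and 169 and 159 in N3. Their counts were closer to each other than to those of pp_247834. That form had 90, 364 and 330 reads in C1, C2 and C3, and 111, 118 and 193 in N1, N2 and N3.

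Form pp_203818 did not keep its proportion to the even forms. Its ratio to their mean CPM was 0.651, 0.851 and 1.88 in the control libraries C1 to C3, against 0.480, 1.02 and 0.985 in the ammonium libraries N1 to N3. The control range thus took in all the ammonium libraries but N1. On the log2 scale, the ratio to their summed CPM was -1.56 ± 0.80 among controls and -1.94 ± 0.61 under ammonium (SD, n = 3). The difference of -0.37 was smaller than the SD of either group, and without C3 it was 0.076.

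**Figure D3:**
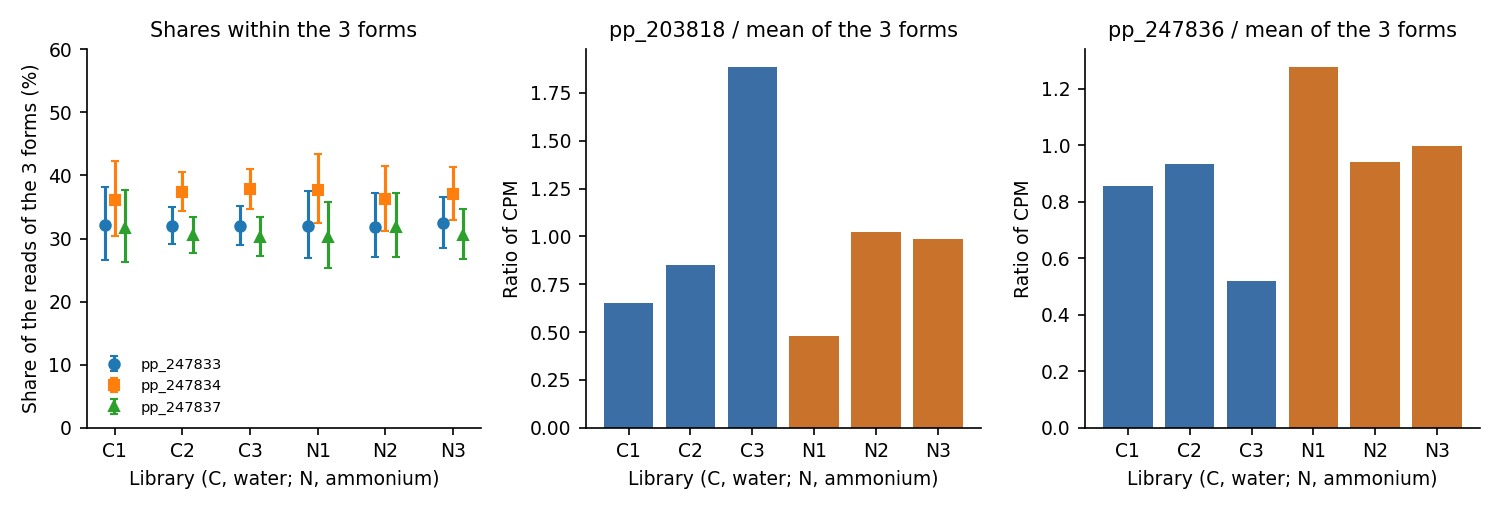
For each library (C, water, blue bars; N, ammonium, orange bars), the share of each even form in the reads of the 3 with its 95% Wilson interval (left, %), the ratio of pp_203818 to the mean CPM of the even forms (middle) and the ratio of pp_247836 to the same mean (right). The shares stay between 30.2% and 37.8%, while in C3 the middle ratio is the highest of the 6 (1.88) and the right ratio the lowest (0.519).

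The IDs next to the even forms carried a different pattern. Forms pp_247835 and pp_247836, which shared their best match in the same unigene collection, are also annotated with ADH1 as closest match. Form pp_247836 was at 54.5, 62.0 and 33.3 CPM in C1, C2 and C3 and at 40.6, 21.8 and 30.8 CPM in N1, N2 and N3. Form pp_247835 was at 51.4, 51.3 and 27.8 CPM in the controls and at 32.5, 18.3 and 25.3 CPM in ammonium. Both were low in C3, the library in which pp_203818 was high, and in both the groups overlapped. The ratio of pp_247836 to the mean of the even forms was 0.855 in C1, 0.934 in C2 and 0.519 in C3, and among the ammonium libraries it was 1.28, 0.939 and 0.996. Over the 8 measured IDs from pp_247833 to pp_247840, the even forms held 62.7%, 58.8% and 69.3% of the reads in C1, C2 and C3 against 50.6% (N1), 59.5% (N2) and 58.4% (N3).

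Form pp_203819, next to pp_203818, followed it closely. It was at 39.9, 56.7 and 109 CPM in the control libraries and at 23.1, 29.2 and 37.4 CPM in the ammonium libraries. The recovered reads of pp_203818 and pp_203819 were 54 and 52 in C1 and 276 and 277 in C2, so the transcripts were nearly level in these controls. Under ammonium pp_203818 had fewer, with 47 against 71 reads in N1, 111 against 137 in N2 and 171 against 210 in N3. The ratio of pp_203818 to pp_203819 was thus 0.996 to 1.11 in water and 0.662 to 0.814 in ammonium. As pp_203818 was chosen from this contrast, the ratio is not tested.

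Form pp_203827, also matched to ADH1, was high in C3, and its ammonium libraries lay close to C1 and C2. It was at 43.0, 43.6 and 87.0 CPM in C1, C2 and C3 and at 31.8, 39.0 and 44.9 CPM in N1, N2 and N3. The groups overlapped. Its log2 fold change over all 6 libraries was -0.51 (adjusted p = 0.552 from limma), between means of 57.8 ± 25.3 CPM and 38.6 ± 6.56 CPM (SD, n = 3), and the ammonium mean was 89.2% of the mean of C1 and C2 alone. In pp_203826 the ammonium mean was 114% of it, from 16.9, 23.9 and 43.1 CPM in water to 15.9, 24.5 and 29.2 CPM in ammonium. For pp_203818 the same percentage was 47.3%, and for the even forms it was 43.6% to 44.4%.

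In all, 23 of 27 listed transcripts with ADH1 as closest match were measured, the 4 described here and 19 others. Of the 19, 18 had a log2 fold change below 0 and 1 above 0. C3 was the highest control library in 14 of the 19, where it was the highest in 33.8% of all transcripts. Some of these forms may share reads, which was not tested, so they are not counted as independent. Only 6 of the 19 were annotated outside a list that the study sorted by the p-value of this contrast, so the other 13 are likely to lean towards low p and are given as a description.

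None of those 6 passed limma, with 4 lower and 0 higher at an unadjusted p under 0.05. Over all transcripts 4.58% were lower and 4.10% higher at that level. edgeR's exact and quasi-likelihood tests also called 0 of the 6, and so did DESeq2, which gave no adjusted p for pp_203820. The likelihood-ratio test called 2 lower, pp_203820 and pp_82630 (over all transcripts it called 0.673% lower and 0.294% higher). Their median log2 fold change was -0.68, with a range from -0.97 to -0.20, beside a median of 0.00 over all transcripts. Form pp_203820 was at 5.37, 4.50 and 11.7 CPM in water and 2.92, 2.77 and 3.03 CPM in ammonium (log2 fold change -0.97, SE 0.30, adjusted p = 0.361 from limma), and its groups did not overlap. Form pp_82630 was at 4.60, 8.18 and 12.6 CPM in water and 5.84, 2.35 and 3.21 CPM in ammonium (log2 fold change -0.95, SE 0.33, adjusted p = 0.432 from limma). The other 4 were pp_181249 (adjusted p = 0.488, low in C3 with 9.94 CPM against 17.6 and 19.0 CPM in C1 and C2), pp_203827 (0.552), pp_181255 (0.875) and pp_203826 (0.878), all from limma.

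The 13 forms annotated only in the sorted list had a median log2 fold change of -0.81. The lowest was pp_105643, at 1.53, 3.89 and 7.07 CPM in water and 0.649, 0.853 and 0.713 CPM in ammonium (log2 fold change -1.42), which rests on few reads, since 3 reads were worth 2.30 CPM in C1. Form pp_95700 was the exception in direction, at 8.44, 5.73 and 6.85 CPM in water and 9.74, 12.8 and 13.0 CPM in ammonium (log2 fold change 0.69), with ammonium libraries all above the control libraries, as in 7.16% of all transcripts. The 4 forms pp_185261 to pp_185264, which shared their unigene match with pp_203818, had log2 fold changes of -0.89 to -0.75 at 1.30 to 7.51 CPM. In all 4 of these C3 was the highest control library, with the smallest gap to C2 in pp_185261 (6.85 against 5.93 CPM) and the widest in pp_185264 (7.29 against 4.91 CPM). Of the remaining forms, pp_105642 (-0.97), pp_181247 (-0.61), pp_247840 (-0.96) and pp_250918 (-1.02) were at or below 19.0 CPM in every library.

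**Figure D4:**
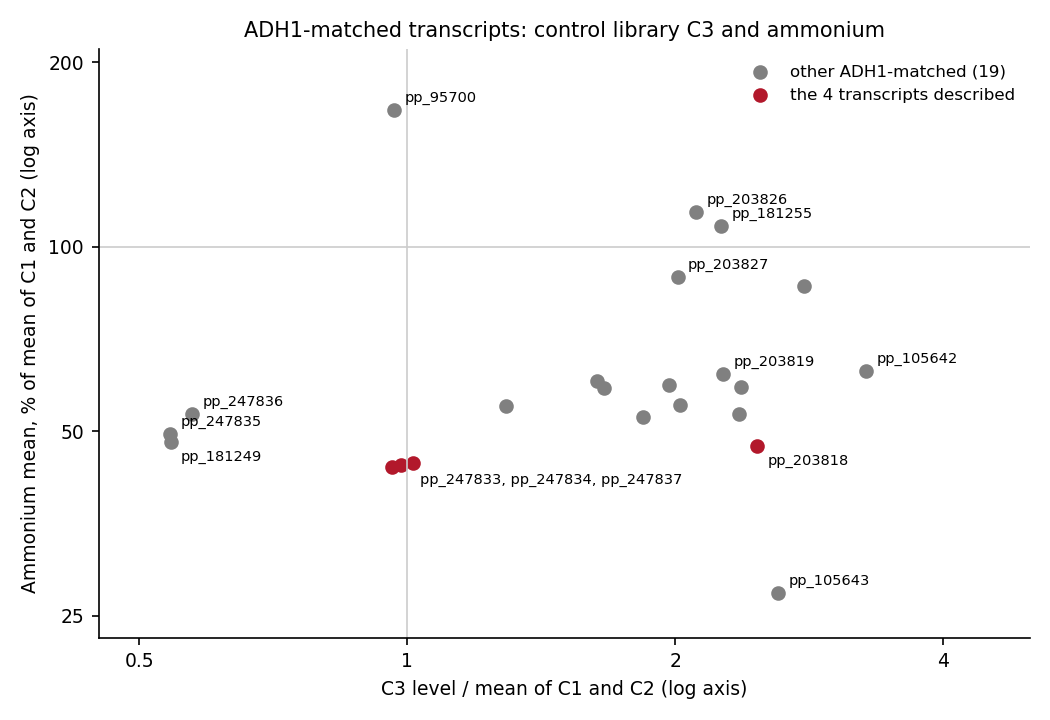
Each of the 23 measured ADH1-matched transcripts by its level in C3 relative to the mean of C1 and C2 (horizontal, log axis) and by its ammonium mean as a percentage of the mean of C1 and C2 (vertical, log axis), with the 4 transcripts described in red. The even forms sit near 1 on the horizontal axis at 43.6% to 44.4%, pp_203818 lies at 2.47 and 47.3%, and pp_247835 and pp_247836 lie to the left, at 0.542 and 0.573.

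Relative to C1 and C2 alone, the ammonium means of all 4 transcripts were alike, at 43.6% to 47.3%. This level was not particular to them. Among the other ADH1-matched forms the percentage ran from 27.2% (pp_105643) to 167% (pp_95700), with 47.9% in pp_181249 and 49.4% in pp_247835. C3 was 0.984, 1.02 and 0.961 times the mean of C1 and C2 in pp_247833, pp_247834 and pp_247837, and 2.47 times in pp_203818. These are descriptions of single libraries.

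Pyruvate decarboxylase, the step before ADH, had forms with the pattern of pp_203818 and forms that hardly differed. Form pp_163572 was at 5.37, 12.7 and 34.9 CPM in C1, C2 and C3 and at 2.27, 4.90 and 6.06 CPM in N1, N2 and N3. C3 was the highest of its libraries, and C1 lay below N3, so the groups overlapped. Its log2 fold change was -1.51 (SE 0.46, adjusted p = 0.348 from limma), and edgeR's exact test called it lower (adjusted p = 0.00326), as did the quasi-likelihood test. Form pp_163574 was at 42.2, 45.4 and 81.0 CPM in water and 39.3, 26.0 and 37.1 CPM in ammonium (log2 fold change -0.66, SE 0.22, adjusted p = 0.400 from limma). Form pp_163570 was at 115, 114 and 98.7 CPM in water and 114, 129 and 133 CPM in ammonium (log2 fold change 0.20, adjusted p = 0.656 from limma). Of the 6 forms annotated outside the sorted list, limma called 0, with 2 lower and 0 higher at an unadjusted p under 0.05 (4.58% and 4.10% over all transcripts). DESeq2 called 0 as well, but gave no adjusted p for pp_163576.

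The other 4 pyruvate decarboxylase forms came only from the sorted list. All 4 had C3 as the highest control library and a log2 fold change below 0, from -2.41 to -1.04. Form pp_78343 was at 6.14, 9.61 and 28.9 CPM in water and 0.974, 1.92 and 1.60 CPM in ammonium. Form pp_123611 was at 2.30, 7.16 and 25.6 CPM in water and 0.325, 1.71 and 1.96 CPM in ammonium. In both, C1, C2 and C3 were ordered as in pp_203818. The same order held in pp_123603, but in pp_126347 C2 lay below C1. These forms were named after their values were seen, and several of the levels rest on few reads. Forms pp_123611 and pp_126347 each had 3 reads in C1 and 1 read in N1, and pp_123603 had 1 read in C1.

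Ethylene response factors of group VII, which induce ADH1 in Arabidopsis under low oxygen, were measured in 7 forms. The 2 annotated outside the sorted list, pp_96229 and pp_96235, differed little from each other in any library. Form pp_96229 was at 231, 190 and 275 CPM in water and 173, 167 and 195 CPM in ammonium (log2 fold change -0.37, SE 0.13, adjusted p = 0.437 from limma), with C3 again the highest. For pp_96235 the adjusted p was 0.447 from limma. edgeR's exact and quasi-likelihood tests and DESeq2 called neither, and both were lower at an unadjusted p under 0.05. The 5 forms from the sorted list had log2 fold changes of -1.26 to -0.37, and C3 was the highest control in all 5.

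Upstream and downstream of the ethanol branch the lists had no common direction. Sucrose synthase, which feeds sugar into glycolysis, had 9 measured forms outside the sorted list, 7 below and 2 above 0, with 2 lower and 2 higher at an unadjusted p under 0.05. Form pp_144835 was lower by 0.58 on the log2 scale and did not pass (113 ± 14.1 CPM in water, 75.4 ± 14.1 CPM in ammonium, SD, n = 3, limma adjusted p = 0.219). Aldehyde dehydrogenases of family 2, which oxidise acetaldehyde, had 13 of 16 forms above 0. The smallest p among them was that of pp_87003, with 59.8 ± 5.44 CPM in water against 89.6 ± 15.2 CPM in ammonium (SD, n = 3), a log2 difference of 0.56. Limma gave it an adjusted p of 0.206 and edgeR's exact test one of 0.0406. For alanine aminotransferase, which draws on pyruvate, all 3 forms were above 0, and pp_201570 differed by 0.76 on the log2 scale, with an adjusted p of 0.313 in limma and of 0.0419 in edgeR's exact test.

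Phosphofructokinase (7 of 11 forms above 0), pyruvate kinase (5 of 9), cinnamyl alcohol dehydrogenase (3 of 3) and other zinc dehydrogenases (3 of 10) had medians of 0.14, 0.02, 0.11 and -0.02. The smallest p among the other zinc dehydrogenases was that of pp_179986, a class III enzyme, which oxidises the adduct of formaldehyde and glutathione (log2 fold change -0.35, adjusted p = 0.511 from limma). Over the 9 pathway lists, limma called 0 of 69 measured forms, with 7 lower and 8 higher at an unadjusted p under 0.05. Over all transcripts 4.58% were lower and 4.10% higher at that level, smaller shares than among the 69. The same shares stand beside the counts of single lists given above. Whether the lists differ from all transcripts was not tested. Forms within a list may share reads, so they are not counted as independent. For example, the alanine aminotransferase forms pp_201567 and pp_201568 each had 188, 245 and 305 reads in N1, N2 and N3. edgeR's exact test called 1 lower and 2 higher (0.559% and 0.253% over all transcripts) and its quasi-likelihood test 1 lower and 0 higher (0.182% and 0.0622% over all transcripts). DESeq2 called 0 (0.213% lower and 0.0972% higher over all transcripts that it tested), but some of the 69 had no adjusted p from it. The median of the 69 was 0.02.

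**Figure D5:**
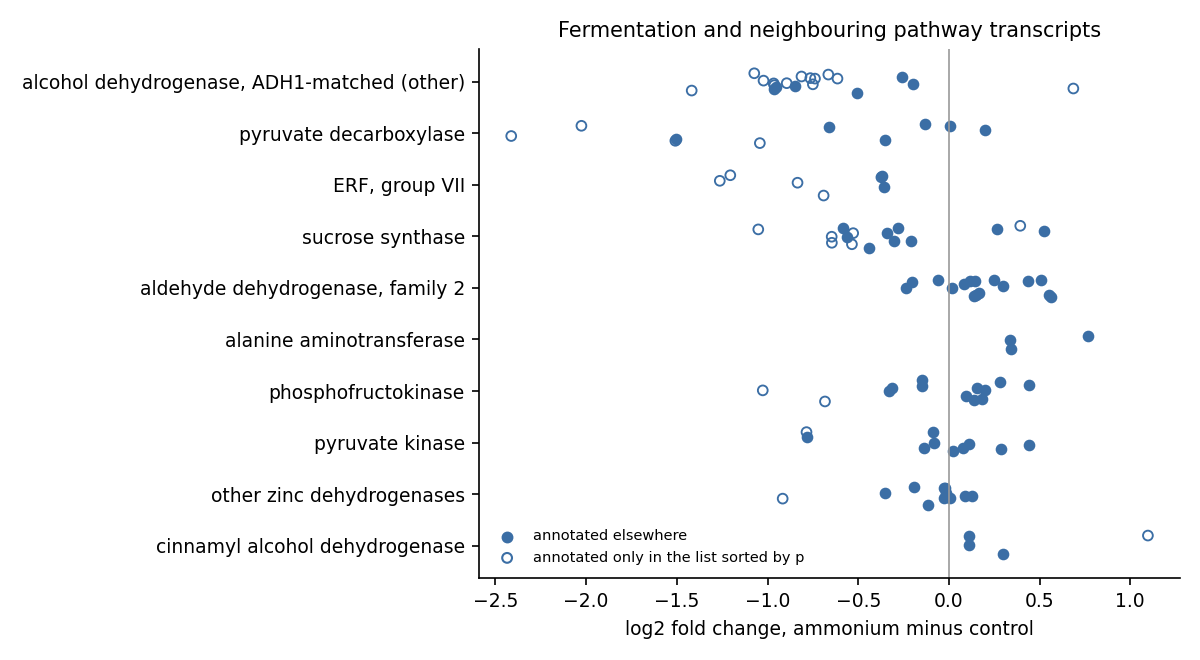
Log2 fold change (horizontal axis, ammonium minus control, limma) of the measured forms of each list (vertical axis), filled where annotated outside the list sorted by p and open where annotated only there; vertical scatter within a list has no meaning. Filled points of the ADH1-matched list run from -0.97 to -0.20, those of pyruvate decarboxylase from -1.51 to 0.20, the 3 of alanine aminotransferase (0.34 to 0.76) and the 3 of cinnamyl alcohol dehydrogenase (0.11 to 0.30) lie above 0, both group VII factors (-0.37 and -0.36) lie below, and the other lists have points on both sides.

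The transcripts whose pattern over the 6 libraries was most like that of the even forms and of pp_203818 were not the same. Likeness was Pearson's r of log2(CPM + 1) over 6 libraries, among 17828 other transcripts with a mean of at least 10 CPM, and the 5 highest with an entry in the study's annotation were taken. The libraries share treatment and depth, so r is a description. For the mean of the even forms these were pp_227418 (r = 0.996), pp_245935 (0.984), pp_134944 (0.984), pp_153162 (0.983) and pp_227408 (0.982). Form pp_227418, matched to alternative oxidase 1A, a mitochondrial oxidase that bypasses part of the respiratory chain, was at 30.7, 29.9 and 30.5 CPM in water and 22.4, 18.8 and 22.1 CPM in ammonium. Its control libraries were likewise close together, with N2 the lowest of the 6. Form pp_134944 matched a chaperone regulator of the BAG family and pp_245935 a beta subunit of a translation initiation factor, and the others carried no informative name.

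For pp_203818 the 5 were pp_203819 (r = 0.991), pp_58631 (0.990), pp_206451 (0.979), pp_58630 (0.977) and pp_202098 (0.977). Forms pp_58631 and pp_58630 are annotated as an E3 ubiquitin ligase. Form pp_58631 was at 15.3, 17.4 and 27.4 CPM in water and 7.47, 8.74 and 10.9 CPM in ammonium. Like pp_203818 it was highest in C3 and, within ammonium, lowest in N1 and highest in N3. No ADH1-matched transcript outside the 4 was among the 5 for the even forms, and pp_163572, the pyruvate decarboxylase form, had r = 0.971 with pp_203818. Nearly all of these names came from the list sorted by p, so the choice of named transcripts leans towards those that differ between treatments.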

How the data were processed

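Reads from 3 control and 3 ammonium libraries of direct RNA sequencing had been quality-filtered and mapped to a pine root transcriptome with minimap2, and edgeR gave library-scaled CPM, according to the paper and the submitters' notes. The authors deposited these CPM values for 46658 transcripts, each reaching 2 CPM or more in 2 or more libraries. Neither software versions nor the counting program are given in the sources used here. For every library, 100% of values came out as a whole number of reads (tolerance 1e-06), and a level of 3 reads equals 0.535 to 2.30 CPM. The main test was limma 3.58.1 on log2(CPM + 1), with a trend and Benjamini-Hochberg adjustment over all transcripts (threshold 0.05), which understates changes of low transcripts. Beside it, edgeR 4.0.16 was run on the recovered reads (exact test 379 transcripts called, quasi-likelihood 114) and DESeq2 1.42.0, in R 4.3.3, and intervals were computed in scipy. Scripts were tested on simulated data.

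The members and lists were chosen with earlier results of these data known. Lists came from the study's annotation by Arabidopsis match. Named transcripts were the 4 described, the measured ADH1-matched transcripts, up to 3 per pathway list with the smallest limma p, and the 5 most alike in pattern. In addition, forms of pyruvate decarboxylase from the list sorted by p were named after their values were seen. Results were recomputed with a pseudocount of 0.25 or 4 CPM, a minimum of 10 CPM in 3 libraries, other normalizations and tests, the replicate block and leaving out libraries.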

Additional observations from a re-analysis of the deposited data

How the results depend on the processing

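The sign of the log2 fold change of all 4 transcripts held under each alternative run (leave-one-out ranges -1.24 to -1.01 for pp_247833, -1.26 to -1.01 for pp_247834, -1.22 to -1.04 for pp_247837 and -1.85 to -1.08 for pp_203818). Of the 4, 0 to 4 were called over the leave-one-out fits (0 without C2, where 4726 transcripts had an unadjusted p under 0.05) and 0 with moderation without a trend. The log2 ratio of pp_203818 to the even forms differed between groups by -0.37, with a leave-one-out range of -0.69 to 0.076, reversed at 0.076 without C3.

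Limma called 14 transcripts lower and 4 higher. The counts were 57 and 26 in DESeq2, 261 and 118 in edgeR's exact test, 314 and 137 in its likelihood-ratio test, 85 and 29 in its quasi-likelihood test, 38 and 18 with voom weights, and 0 and 0 without a trend (3658 transcripts at an unadjusted p under 0.05). With no normalization factor or with quantile normalization 8 were called higher. Without C1 and N1 together 244 were lower and 108 higher, and leaving out 1 library gave 0 to 50 lower and 0 to 21 higher (0 of both without C2). With the replicate number as a block the counts were 38 and 11, pp_203818 among those lower. Correlations of deviations were 0.00, 0.06 and -0.01 for libraries of the same number and -0.04 to 0.04 for the other pairs. They were taken over all transcripts, where counting error at low levels can hide a shared run. The check thus cannot decide whether the numbers pair the libraries, and the block is given only here. Of these changes, the cause was not tested.

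Of the other ADH1-matched transcripts annotated outside the list sorted by p, 2 were lower in the likelihood-ratio test and 1 without C1 and N1, and 0 without any 1 library. Of the pathway lists, 1 was lower and 2 higher in the exact test, 2 and 1 in the likelihood-ratio test, 1 lower in the quasi-likelihood test, 4 and 2 without C1 and N1, and 0 lower and 0 to 1 higher without any 1 library.

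The shares of the even forms moved when all IDs from pp_247833 to pp_247840 made up the total (ammonium minus control -2.35, -2.86 and -2.23 percentage points for pp_247833, pp_247834 and pp_247837). Within the 3 the leave-one-out ranges were -0.114 to 0.154, -0.607 to 0.281 and -0.435 to 0.515 points. With a minimum of 20 CPM, 1 of the 5 transcripts most like pp_203818 was retained. Depth limits C1 most, where 3 reads were worth 2.30 CPM.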
